A study of Mus musculus with 21 samples.

Results

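The transcription factor AP-1 is built from subunits of the bZIP class, and 10 of their genes, Fos, Fosb, Fosl1, Fosl2, Jun, Junb, Jund, Atf3, Batf and Batf3, were taken by gene symbol from a table of 34478 genes. All 10 were listed, and 9 of them, all but Batf, were among the 19300 genes with enough signal to be tested. Their mRNA was followed in 21 samples from 6 murine pancreatic ductal adenocarcinoma (PDAC) lines, #3, #4, #6, #7, #9 and #10. Every line, the untreated controls included, carries floxed Trp53 on both alleles (Trp53 loxP/loxP) and Cre in the Ptf1a locus (Ptf1a wt/Cre), a gene of the pancreatic lineage, so that Cre acted in the cells from which the tumours arose. Parental cells (6 samples) had never met trametinib, an inhibitor of the kinase MEK. Resistant cells (6 samples) had been adapted to this drug and were kept in it. P12 (6 samples) and P5 (3 samples, lines #3, #7 and #9) are resistant cells passaged 12 or 5 times after the drug was withdrawn, although the descriptions of the P5 samples of lines #7 and #9 state 12 passages. Each state of a line is 1 culture, so line #3 in one state is paired with line #3 in another.

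AP-1 binds DNA as a dimer. JUN proteins pair with each other or with a FOS protein, whereas FOS proteins need a partner. ATF3 and BATF proteins can pair with JUN proteins, and some of their dimers can repress the same sites. Fos and Fosb are immediate early genes, which growth factor signals through MEK and ERK switch on for a short time. Fosl1 (encoding FRA1) is held high by sustained ERK signalling in carcinoma cells, where it is known as a driver of invasion, and Jun, Atf3 and Jund respond more to stress kinases and other signals. The values are mRNA levels of whole cultures and say nothing of protein or phosphorylation, and in such bulk samples fewer cells of a type and less RNA per cell cannot be told apart.

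Depth was estimated at 24.0 to 42.6 M reads per sample, at which 3 reads equal 2.31 to 4.06 normalized counts. Epithelial keratin Krt8 and E-cadherin were high in 5 of the 6 parental lines, whereas parental line #9 had 816 normalized counts of Cdh1 and 546 of Krt8, against at least 26491 and 73967 in the others (both genes were chosen after their values were seen), and Epcam was listed at 0 in all parental, resistant and P12 samples. Fibroblast markers summed to 121 to 24844 normalized counts in parental and 1898 to 577895 in resistant cells, with 1 of 7 tested genes, Dcn, higher in limma, or 3 when the fit blocked on cell line. Of 6 epithelial markers tested, 1, Cldn4, was lower in resistant cells (4 with the block), and the 7 listed summed to 15950 to 283038 in parental and 1014 to 209982 in resistant cells. Immune markers summed to 139 to 255 and 207 to 2907, with Lyz2 and Cd3e at or under 3 reads in all parental samples. None of the 3 immune genes tested passed. Csf1r alone, named after its values were seen, reached 2530 in 1 resistant sample, against a resistant median of 54.0. Endothelial markers summed to 45.1 to 180 and 32.8 to 2757, and 1 of 5 tested, Tek, was higher. Of all genes tested, 5.3% were higher or lower between resistant and parental cells, and 10.5% with the block. The part of these markers in the AP-1 values was not tested.

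The promoters of 9 of the 10 genes were read from RefSeq (GRCm38.p6), all but that of Fosl1. The 250 bases before the start site were searched on both strands for the AP-1 site TGANTCA, the cyclic AMP element TGACGTCA, its first 6 bases TGACGT, the variant TGACATCA through which JUN and ATF proteins are known to bind the Jun promoter, the TATA box TATAAA and the CArG box of serum response factor. TGANTCA, TGACGTCA and the CArG box matched none of the 9, while 6.75%, 1.55% and 1.47% of all 32851 promoters hold them in this window. Sequence further upstream was not searched, so the lack of a match does not show that a gene has no such site. The RefSeq start sites also differ for some genes from the gene positions printed below, which are from GENCODE. The Jund window ended at chr8:70697738, upstream of the gene start at 70698949. That of Atf3 lay inside the gene, which spans 191170296 to 191218039. TGACATCA matched Jun alone and is held by 2.93% of all promoters, TATAAA matched Fos alone and is held by 12.4%, and TGACGT, held by 6.47% and contained in TGACGTCA, matched Fos, Atf3 and Batf. The last 100 bases before the start are shown for Fos, Jun and Atf3, which hold these matches and differ in how they moved below, with the matches in capitals and 5′ to 3′ on the gene's strand:
Fos (chr12:85473790-85473889, + strand): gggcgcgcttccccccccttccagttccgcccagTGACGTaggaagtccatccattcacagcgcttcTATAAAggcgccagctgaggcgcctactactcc
Jun (chr4:95052223-95052322, - strand): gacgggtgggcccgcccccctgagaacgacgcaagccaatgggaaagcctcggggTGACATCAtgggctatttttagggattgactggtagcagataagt
Atf3 (chr1:191183334-191183433, - strand): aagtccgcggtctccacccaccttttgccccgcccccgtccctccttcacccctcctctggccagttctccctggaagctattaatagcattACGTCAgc
TGACGT began 66 bases and TATAAA 33 bases before the Fos start, TGACATCA 45 bases before the Jun start, and in Atf3 the reverse complement of TGACGT 8 bases before the start. These matches are descriptions of the sequence and not evidence of binding.

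Resistant and parental cells were compared to ask how the AP-1 genes stand while MEK is inhibited. The FOS family changed its make-up: Fosl1, Fos and Fosb fell and Fosl2 rose, and Atf3 rose as well. Of the 9 subunits tested 5 passed the test (limma, adjusted p under 0.01 and an absolute log2 fold change over 1), against 5.3% of all genes tested, with 2 of them higher (2.57% of all genes) and 3 lower (2.73%). With the cell line as a block the count was 6, against 10.5% of all genes. The 2 groups did not overlap for 3 of the 9 subunits, Fos, Fosb and Fosl2, against 5.99% of all genes. Junb, Jun, Jund and Batf3 did not pass. When 1 line was left out, Fosl1 was called each time, whereas Fos lost its call without #3, #4 or #7. Fosb kept its call only without #6, and Fosl2 and Atf3 only without #3, the limma adjusted p-values of these 4 genes being at most 0.0405 in all 6 fits. With the block, Fosl1, Fosl2, Fosb and Atf3 were called each time.

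**Figure D1:**
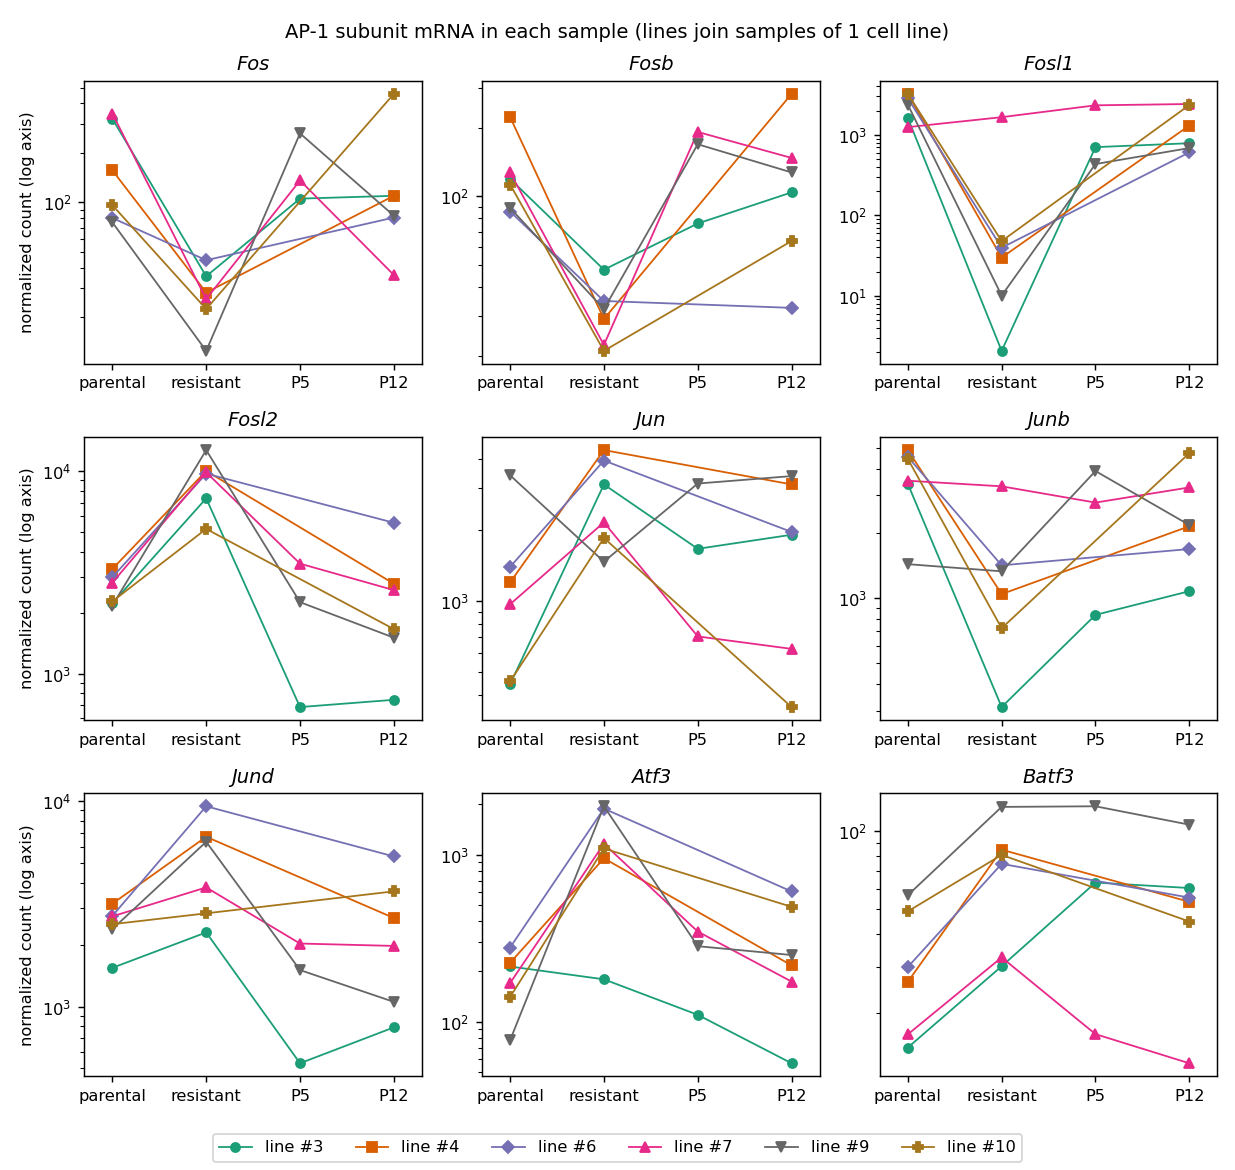
Normalized count (log axis, a separate range in each panel) of 9 AP-1 subunits in the 4 states; each symbol is 1 sample and lines join the samples of 1 cell line. Fosl1 drops to between 2.07 and 47.8 normalized counts in 5 resistant lines but not in line #7, and Fosl2 is at 5185 or more in every resistant sample.

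Fosl1 (chr19:5447547-5455946, + strand, GRCm38) lay between 1247 and 3231 normalized counts in parental cells, with a median of 2614. In resistant cells it was 2.07 in line #3, 10.0 in #9, 29.8 in #4, 39.5 in #6, 47.8 in #10 and 1659 in #7. The groups overlapped through line #7 alone, and the value of line #3 was below that of 3 reads. The log2 fold change was -5.88 (SE 0.97), the largest among the subunits, with an adjusted p of 0.000601 in limma. Within lines, Fosl1 was between 66.2-fold and 529-fold lower in 5 of 6 and 1.33-fold higher in #7. Without line #7 the log2 fold change was -7.14 (limma adjusted p = 8.51e-06).

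Fosl2 (chr5:32135801-32157842, + strand), which encodes FRA2, the closest relative of FRA1, moved the other way. Its parental levels were 2169 to 3288 (median 2544) and its resistant levels 5185 to 12718 (median 9803) normalized counts. Every resistant sample was above every parental one, line #10 being the lowest and line #9 the highest of the resistant samples. The log2 fold change was 1.76 (SE 0.40, limma adjusted p = 0.00621), and all 6 lines rose, by 1.19 to 2.55 on the log2 scale. Line #7, whose Fosl1 did not fall, raised Fosl2 by 1.81.

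The immediate early genes Fos (chr12:85473890-85477273, + strand) and Fosb (chr7:19302696-19310051, - strand) were lower in all 6 resistant lines. Fos had 75.7 to 347 normalized counts in parental cells (median 127) and 12.5 to 44.5 in resistant cells (median 27.1). Fosb had 85.8 to 223 (median 116.04) and 20.99 to 47.7 (median 30.5). Neither gene's groups overlapped, and lines #3 and #7 were the highest parental samples for Fos and line #4 for Fosb. Fos differed by -2.44 on the log2 scale (SE 0.52, limma adjusted p = 0.00408) and Fosb by -1.96 (SE 0.42, limma adjusted p = 0.0040). Unlike Fosl1, both were lower in line #7, by 3.70 for Fos and 2.46 for Fosb on the log2 scale of normalized count plus 1.

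Atf3 (chr1:191170296-191218039, - strand), a stress-induced partner of JUN, had 77.7 to 278 normalized counts in parental cells (median 192) and 180 to 1947 in resistant cells (median 1125). Line #3 was the lowest resistant sample, inside the parental range, and the other 5 resistant samples, from 951 upwards, were above all parental ones. The log2 fold change was 2.48 (SE 0.58, limma adjusted p = 0.00722) and 5 of 6 lines rose, line #9 most, by 4.63, while line #3 differed by -0.25. Without line #3 the value was 3.03 (limma adjusted p = 0.000446).

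**Figure D2:**
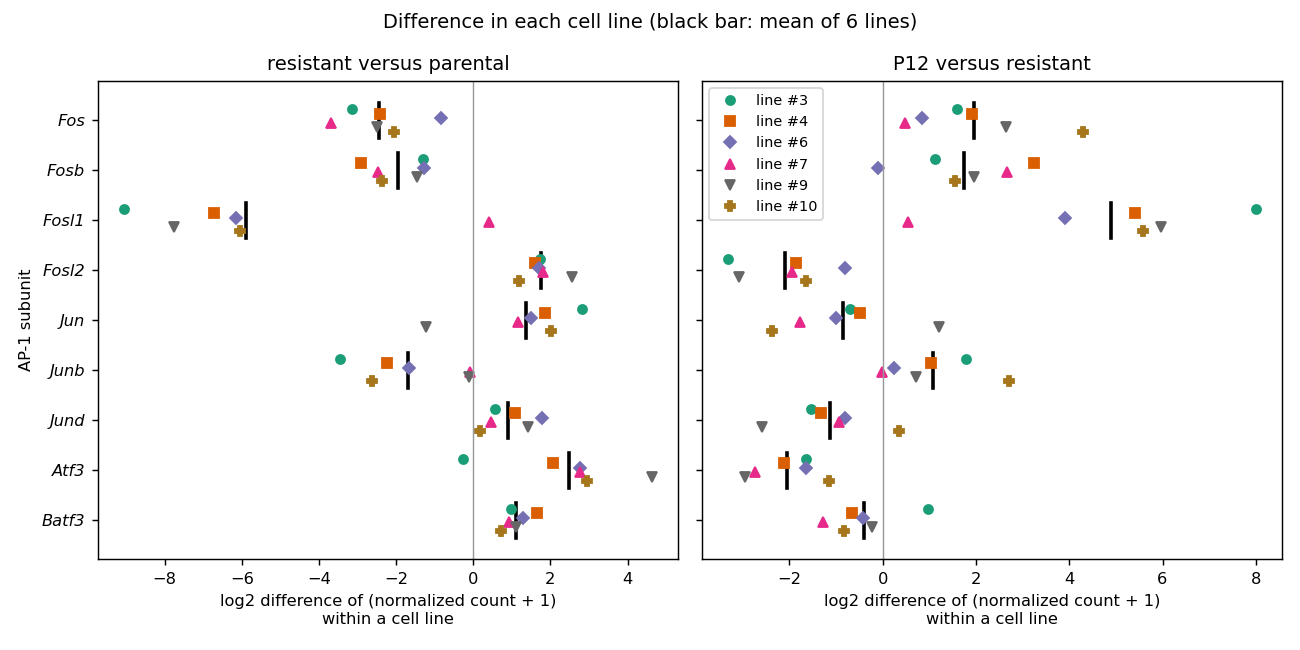
Log2 difference of normalized count plus 1 within each of the 6 cell lines for 9 subunits, resistant versus parental (left) and P12 versus resistant (right); symbols are lines and black bars their mean. The pairs Fosl1 and Fosl2 lie on opposite sides of 0 in both panels except for Fosl1 of line #7, at 0.41 on the left.

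Among the JUN genes, Junb (chr8:84974484-84978718, - strand), an early response gene often set against Jun in growth control, had 1438 to 4878 normalized counts in parental cells (median 3976) and 312 to 3309 in resistant cells (median 1188). All 6 lines were lower, but the difference was -0.09 in #7 and -0.11 in #9 against -1.67 or lower in the other 4. Its log2 fold change of -1.69 (SE 0.49) missed the threshold (limma adjusted p = 0.0259) and passed it with the cell line as a block (limma adjusted p = 0.00838). Over the alternatives tried, the adjusted p of Junb ranged from 0.00404 to 0.0981.

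Jun (chr4:95049034-95052222, - strand), the founding member of the JUN family and a target of the JNK kinases, had 442 to 3406 normalized counts in parental and 1465 to 4359 in resistant cells, with medians of 1082 and 2633. The groups overlapped because of line #9, which had the highest parental value, 3406, and the lowest resistant value, 1465. In the other 5 lines the resistant cells were higher, by 1.15 to 2.81 on the log2 scale, while line #9 differed by -1.22. The fold change of 1.36 (SE 0.58) did not pass (limma adjusted p = 0.118, and 0.0309 with the block). Without line #9 it was 1.87 (limma adjusted p = 0.0274), and without line #9 and with the block it passed (limma adjusted p = 0.00283); over all alternatives the adjusted p ran from 0.00283 to 0.358.

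Jund (chr8:70698949-70700616, + strand), the JUN gene known for steady expression in resting cells, ranged from 1542 to 3163 (median 2630) in parental and from 2293 to 9414 (median 5060) in resistant cells. All 6 lines were higher in the resistant state, by 0.18 to 1.77, but with a log2 fold change of 0.91 (SE 0.45) the comparison did not pass (limma adjusted p = 0.182, and 0.0349 with the block). Batf3 (chr1:191097847-191108945, + strand), best known for the development of cross-presenting dendritic cells, was higher in all 6 lines as well, from 14.8 to 56.6 (median 28.2) in parental to 30.2 to 123 (median 77.6) in resistant cells. Its log2 fold change was 1.11 (SE 0.54, limma adjusted p = 0.175, and 0.0179 with the block). Batf (chr12:85686669-85709087, + strand), a lymphoid and myeloid factor, had 142 normalized counts in the parental sample of line #9, and the other 20 samples had 3.08 or less.

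P12 and resistant cells were compared to ask which of these levels changed after the drug was withdrawn. Of 9 subunits tested 2 passed, against 2.13% of all genes: Fosl1 was higher and Fosl2 lower. With the cell line as a block there were 4, against 4.52% of all genes: Fosl1, Fosl2, Fosb and Atf3. This comparison shares the resistant samples with the one before, so opposite signs in the 2 comparisons are not independent of each other.

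Fosl1 was 606 to 2418 normalized counts in P12 (median 1046) and had a log2 fold change of 4.90 over resistant cells (SE 0.97, limma adjusted p = 0.00481). All 6 lines were higher, line #7 least, by 0.54, from 1659 to 2418, and the other lines by 3.90 to 8.01 on the log2 scale. Fosl2 was 742 to 5563 (median 2121) and had a fold change of -2.10 on the log2 scale (SE 0.40, limma adjusted p = 0.00375), with all 6 lines lower, by 0.81 in #6 to 3.31 in #3. The highest P12 sample, line #6, overlapped the lowest resistant one, line #10. Leaving out line #4, #9 or #10 ended both calls. Leaving out #3 or #6 ended that of Fosl1 and leaving out #7 that of Fosl2, with adjusted p-values of at most 0.0328 in limma. A fit of P12 and resistant cells alone, with all 6 lines, ended both as well. Why the calls were lost was not tested.

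Fos was 36.2 to 457 normalized counts in P12 (median 96.4), line #7 being the lowest and line #10 the highest. It was higher than in resistant cells in all 6 lines, and its log2 fold change of 1.96 (SE 0.52) missed the threshold (limma adjusted p = 0.0289, and 0.0328 with the block). Fosb was 32.4 to 282 (median 115.8), higher in 5 of 6 lines, with line #6 at -0.10 on the log2 scale. Its fold change of 1.74 (SE 0.42) had an adjusted p of 0.0164 in limma and passed with the block (0.0072). Atf3 was 56.5 to 602 (median 234) and lower in all 6 lines, by 1.16 to 2.95; its fold change of -2.04 (SE 0.58) had an adjusted p of 0.0391 in limma and of 0.0077 with the block. Over the alternatives the adjusted p ran from 0.00403 to 0.0866 for Fosb and from 0.00415 to 0.144 for Atf3.

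In the JUN family no subunit passed between P12 and resistant cells. Junb had 1077 to 4720 normalized counts in P12 (median 2173; log2 fold change 1.08, SE 0.49, limma adjusted p = 0.227), Jund 792 to 5369 (median 2333; -1.14, SE 0.45, 0.149) and Jun 354 to 3381 (median 1932; -0.86, SE 0.58, 0.451). Over the alternatives the limma adjusted p of Jund ran from 0.0087 to 0.34, and it passed in 1 fit, with line #10 left out and the block included. Jun in P12 fell into a low pair, 354 in #10 and 625.1 in #7, and 4 samples at 1906 or more. Batf3 had 12.8 to 105 (median 54.4; -0.41, SE 0.54, 0.746).

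P12 against parental cells, the comparison of drug-withdrawn with never-treated cells, gave 0 called subunits of 9 in limma, against 0.114% of all genes, and 0 with the block, against 0.523%. Of the 9, 0 had an unadjusted p under 0.05, against 15.3% of all genes, and with the block 1 had, Batf3, against 23.8%. The log2 differences were 0.70 for Batf3, 0.50 for Jun, 0.44 for Atf3, -0.22 for Fosb, -0.23 for Jund, -0.34 for Fosl2, -0.48 for Fos, -0.61 for Junb and -0.98 for Fosl1, with standard errors from 0.40 for Fosl2 to 0.97 for Fosl1, and missing the test does not show that a level was back at its start. Compared line by line with parental cells, Fosl1 was still lower in 5 of the 6, and Fosl2, which had been higher in all 6 resistant lines, was below its parental level in 5. For the 5 subunits called in resistant cells, the mean P12 difference from parental cells, as a share of the resistant difference, was 19.8% for Fos, 17.8% for Atf3, 16.7% for Fosl1, 11.3% for Fosb and -19.3% for Fosl2, the negative share marking a mean on the other side of the parental level. Leaving out a line moved these shares between -2.92% and 40.8% for Fos (without #7 and #10), 7.22% and 30.0% for Atf3 (without #10 and #3) -0.49% and 18.8% for Fosb (without #6 and #4) and -33.0% and -5.13% for Fosl2 (without #6 and #3).

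P5 was sequenced in lines #3, #7 and #9, in that order below. Fosl2 had 683, 3492 and 2253 normalized counts against 7341, 9879 and 12718 in the resistant cells of the same lines. Every P5 sample was below every resistant sample, line #3 by the widest margin. The log2 fold change over all resistant samples was -2.33 (SE 0.49, limma adjusted p = 0.0171), and -2.16 with the block, which passed (limma adjusted p = 0.00932; 0.00779 to 0.24 over the alternatives). Thus 0 of 9 subunits passed in limma, against 0.378% of all genes, with 6 at an unadjusted p under 0.05 (15.4% of all genes), and 1 passed with the block, against 0.611%.

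Fosl1 in P5 was 704, 2329 and 434 normalized counts, against 2.07, 1659 and 10.0 in the resistant cells. Lines #3 and #9 were 230-fold and 39.4-fold higher and line #7 1.40-fold, and the log2 fold change of 4.52 (SE 1.19) had an adjusted p of 0.0536 in limma. Fos had 105, 136 and 263 and Fosb 76.1, 192 and 169, each above every resistant sample (limma adjusted p = 0.0438 and 0.0325). Jund had 530, 2025 and 1504 and was below every resistant sample (log2 fold change -1.98, SE 0.55, limma adjusted p = 0.0652). In all, 4 of the 9 subunits (Fos, Fosb, Fosl2 and Jund) did not overlap between P5 and resistant cells, against 5.37% of all genes. Jun had 1661, 706 and 3144, Junb 836, 2781 and 3898, Atf3 110, 347 and 283, and Batf3 63.2, 16.6 and 124, and none of these 4 passed or stood clear of the resistant samples.

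Neither P5 against parental cells (0.0259% of all genes called) nor P12 against P5 (0%) gave a called subunit, with or without the block. Of the 9, 0 had an unadjusted p under 0.05 in limma in either comparison, against 10.4% and 0.674% of all genes, and with the block Batf3 had one between P5 and parental cells, against 14.4%. Between P5 and P12 of the same line, Jun went from 1661 to 1906 in #3, from 706 to 625.1 in #7 and from 3144 to 3381 in #9. Fosl1 went from 704 to 787, from 2329 to 2418 and from 434 to 685.

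Per kilobase of the longest coding transcript, the FOS family was mostly Fosl1 in parental and mostly Fosl2 in resistant cells. Fosl1 made up 51.5% to 80.4% of the FOS family level per kilobase in parental cells (median 73.9%), 0.0961% to 36.8% in resistant cells (median 1.20%) and 26.6% to 74.2% in P12 (median 62.3%). The median share of Fosl2 was 21.8% in parental, 97.0% in resistant, 28.1% in P5 and 28.3% in P12 cells. Fosl1 stood above Fosl2 in 6 of 6 parental, 0 of 6 resistant, 2 of 3 P5 and 5 of 6 P12 samples, the exceptions being P5 of line #9 and P12 of line #6. Without division by length the median share of Fosl1 was 47.1% in parental and 0.35% in resistant cells and that of Fosl2 48.7% and 98.8%. Fosl1 then stood above Fosl2 only in parental lines #9 and #10, P5 of line #3 and P12 of lines #3 and #10, so this order depends on the division. The summed level of the family was 1298 to 2370 per kilobase in parental and 835 to 2419 in resistant cells, and these ranges overlapped.

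**Figure D3:**
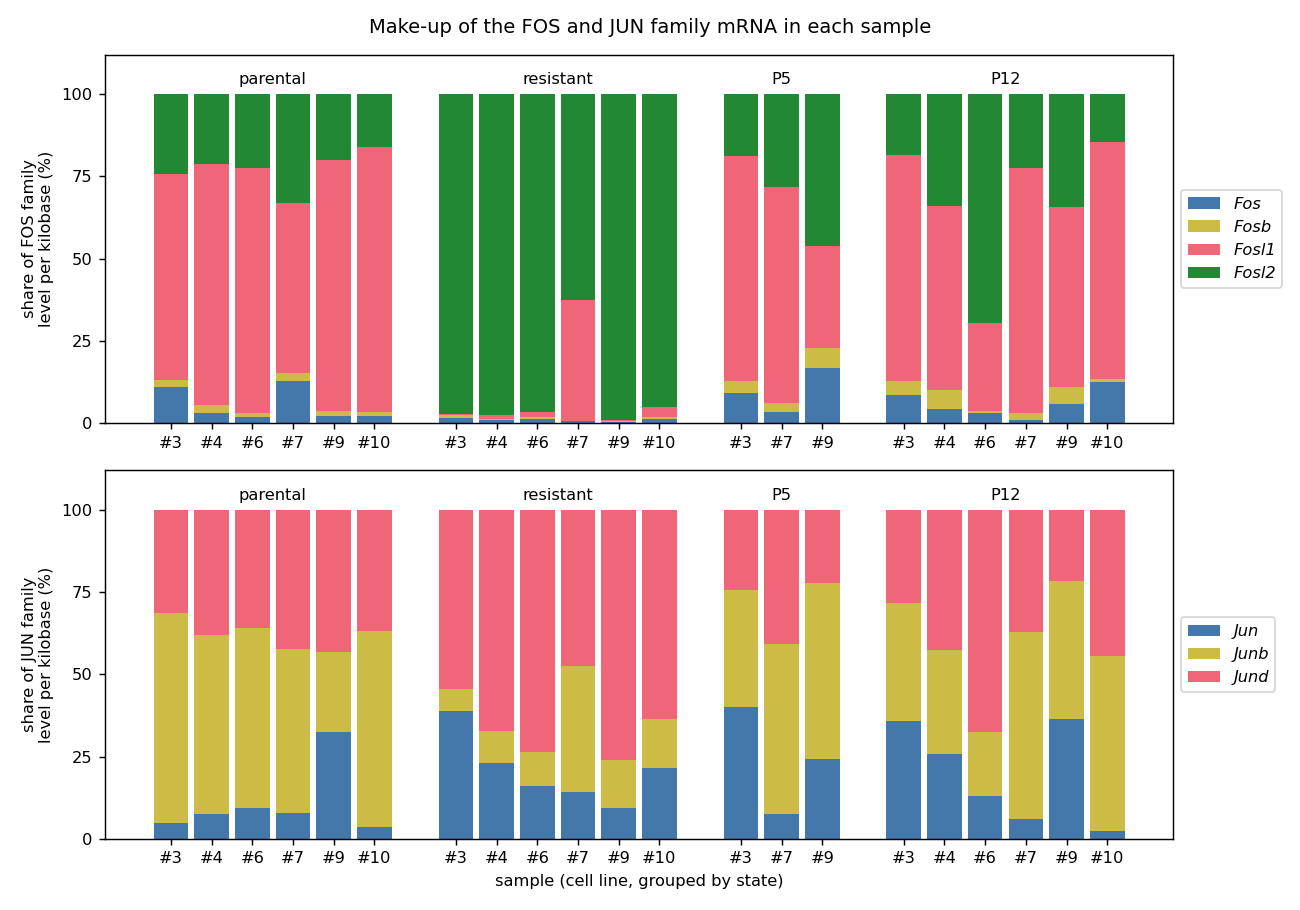
Share (%) of each gene in the summed level per kilobase of the FOS family (top) and the JUN family (bottom), 1 bar per sample. Fosl2 takes 62.5% to 99.0% of the FOS bars in resistant cells, line #7 being the lowest.

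In the JUN family, Junb led Jund per kilobase in 5 of 6 parental samples, all but line #9, and in 0 of 6 resistant samples. The median share of Jund per kilobase was 37.5% in parental and 65.4% in resistant cells, that of Junb 54.4% and 12.5%, and that of Jun 7.67% and 18.9%. In line #9 Jun held 32.5% of the parental and 9.21% of the resistant family level, the reverse of the order in the other lines. Junb led Jund again in 3 of 3 P5 and 4 of 6 P12 samples. Among all 10 genes the order of median levels per kilobase in parental cells ran from Junb (2198), Jund (1577) and Fosl1 (1402) through Fosl2 (389), Jun (339), Atf3 (97.0), Fos (60.0), Batf3 (35.2) and Fosb (30.7) to Batf (0). Neighbours in this order overlapped in range, apart from Fosl1 and Fosl2. In resistant cells Jund (3034) led, followed by Fosl2 (1500), Jun (826), Junb (657), Atf3 (567), Batf3 (96.9), Fosl1 (18.6), Fos (12.8), Fosb (8.06) and Batf (0), and here neighbours overlapped apart from Fosb and Batf.

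The spread of each subunit over the 18 samples of the 3 complete states was divided between cell line and state. State took 71.3% of the sum of squares of Fosl2, 69.7% of Fosl1, 64.3% of Fosb, 59.6% of Fos, 54.9% of Atf3 and 43.9% of Junb, against a median of 19.8% over all genes tested. Line took more than state in Jun (40.9% against 25.2%), Jund (43.8% against 31.8%) and Batf3 (58.2% against 25.9%), the median over all genes being 35.8% for line. Without line #9 the share of state in Jun was 46.7%, and without line #7 that in Batf3 was 41.2%.

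**Figure D4:**
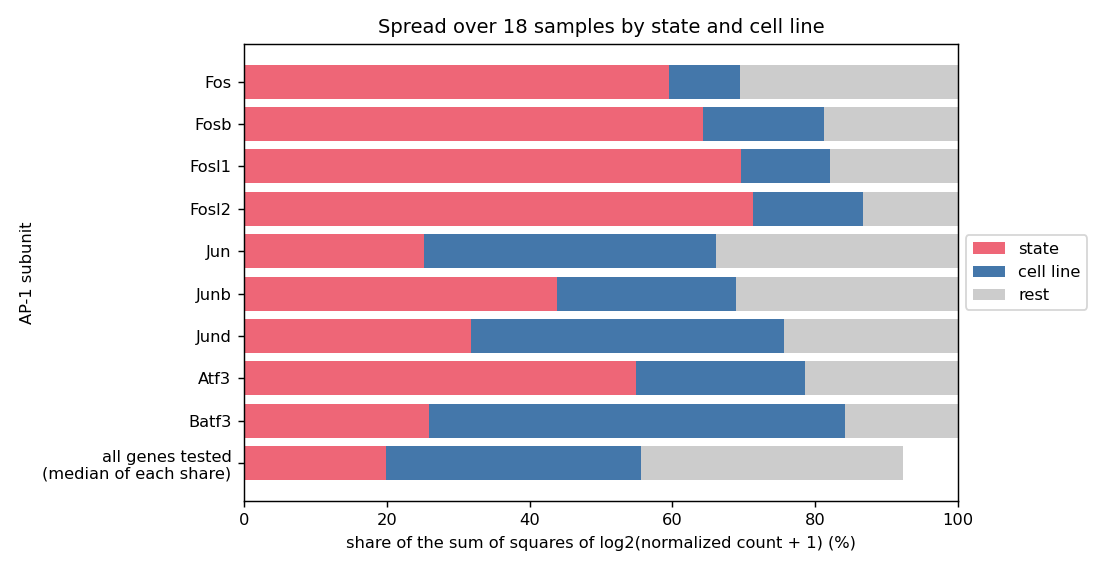
Share (%) of the sum of squares of log2 normalized count plus 1 over 18 samples that goes with state, cell line and the rest, for 9 subunits and as the median of each share over all genes tested. State takes over 40% in Fos, Fosb, Fosl1, Fosl2, Junb and Atf3, and line over 40% in Jun, Jund and Batf3.

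The levels of the subunits were also correlated over the 21 samples, which share lines and states. Jund and Fosl2 had a Pearson r of 0.86, Atf3 and Fosl2 0.81 and Atf3 and Jund 0.77, while Junb and Fosl1 had 0.78, Fosb and Fos 0.64 and Fosl1 and Fos 0.61. Fosl2 ran against Fos (-0.64), Fosb (-0.61) and Fosl1 (-0.59), and Jun against Junb (-0.56). Outside the family, the 5 genes whose pattern was most like that of Fosl1 among 19291 were 2610035D17Rik (r = 0.94), Gsto1 (0.93), Pcdh1, Prkg2 (both 0.92) and Kcnn4 (0.92), and those most like Jun were Plcb4 (0.89), Foxc1 (0.89), Il1rap (0.88), S1pr2 (0.86) and Fbln5 (0.86). In resistant line #7, Kcnn4 was 1597 and Prkg2 565 normalized counts, against at most 92.7 and 39.6 in the other resistant lines. Both were below their parental levels in line #7, 5183 and 3100, whereas Fosl1 was not. Gsto1 and Pcdh1 were below theirs as well, at 4662 against 12545 and 539 against 4365. The gene most like Fosl1, 2610035D17Rik, was not, at 296 against 279 in parental line #7, and it was at most 66.3 in the other resistant lines. All 5 genes were picked by their likeness to Fosl1 in these same samples, so their height in line #7 is no separate evidence.

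The genes around AP-1 were counted in lists of the pathway. Among 12 genes of ERK output, which report the activity of the pathway that trametinib blocks, 9 were lower and 0 higher in resistant than in parental cells (median log2 fold change -3.54, against -0.0049 over all genes), and 10 were higher in P12 than in resistant cells. With the block these counts were 10 and 11. Of all genes, 5.3% passed between resistant and parental cells and 2.13% between P12 and resistant cells (10.5% and 4.52% with the block). Etv4, an ETS factor, had a log2 fold change of -10.46 and Spry4, a feedback inhibitor of growth factor signalling, one of -8.27. Etv5 and the phosphatase gene Dusp4 had -8.09 and -7.80 (limma adjusted p at most 2.99e-05 for the 4). In resistant line #7, where Fosl1 stayed at 1659, Dusp4 was 333 normalized counts against 0 to 40.7 in the other resistant lines, but Etv4, Etv5 and Spry4 were 1.27, 5.37 and 7.06, as low as in the others. Unlike Fosl1, Dusp4 in resistant line #7 was below every parental sample, the lowest of which was 1975.

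Of 19 tested genes known as AP-1 targets in other settings, 4 were lower and 0 higher in resistant cells (median log2 fold change -1.22). Of all genes, 2.73% were lower and 2.57% higher. Several of these targets are also targets of ERK. The 4 were the integrin gene Itga2 (-7.39), osteopontin Spp1 (-7.18), the EGF receptor ligand Areg (-6.89) and cyclin D1, Ccnd1 (-2.65). With the block 6 were lower and 1 higher, against 10.5% of all genes in either direction. In P12, Spp1 (6.94) and Areg (4.88) were higher than in resistant cells and the other 17 did not pass, whereas with the block 5 were higher and 1 lower. Of all genes, 2.13% passed between P12 and resistant cells, and 4.52% with the block. Of 10 genes that act on Fos or Jun transcription, 1 passed in each comparison: Elk3, an ETS factor of the ternary complex at the serum response element, at -2.95 in resistant and 2.95 in P12 cells. Of all genes, 5.3% and 2.13% passed, and 1 of 10 does not set this list apart. Of the 11 other bZIP partners and the 10 genes that act on JUN and FOS proteins, 0 passed in either comparison with limma. With the block, 2 bZIP partners passed between resistant and parental cells, 1 higher (Creb5) and 1 lower (Maff), both named after their values were seen. That is 2 of 11 against 10.5% of all genes, and such counts do not set these short lists apart from all genes. In the list acting on JUN and FOS proteins Mapk9, which encodes the kinase JNK2, was named after its values were seen: it had a log2 fold change of 0.94 (limma adjusted p = 0.00166), just short of the threshold on size.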

How the data were processed

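RNA of 6 murine PDAC lines was sequenced by the authors in 4 states (21 samples; 100 ng of RNA, stranded mRNA libraries). The deposited table holds a signal, gene counts normalized by the authors with DESeq2 1.18 after Skewer (0.1.116 or 0.2.2), salmon 0.12 and TXImport 1.6 on mm10. The annotation release is not given in the sources used here. Whole reads could not be recovered (44.7% to 70.1% of low values lay on the step of 1 read, within 0.02 reads), so no count test was run, and depth is estimated from that step. Samples were not assigned to sequencer models, so batch and state cannot be told apart.

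Log2 of normalized count plus 1 was fitted with limma 3.58.1 (R 4.3.3; eBayes with a trend) over 19300 genes with at least 10 in at least 3 samples, all 4 states in 1 fit. P-values were adjusted by Benjamini-Hochberg over all genes, and calls need an adjusted p under 0.01 and an absolute log2 fold change over 1; fold changes understate those of low genes. Without the block, p-values set the state differences against the spread between samples of a state, and the pairing by line is ignored. With the block, steady differences between lines are taken out of that spread. The fit was tested on simulated data. The cell line number pairs the samples: after removing state means, samples of a line correlated at a mean r of 0.24 (parental and resistant), 0.32 (parental and P12; lowest 0.0082) and 0.46 (resistant and P12), other lines at -0.09 to -0.05. The block is therefore printed where it changes a call or a count. Levels per kilobase use the longest coding transcript of GENCODE M21 (GRCm38), also the source of gene positions.

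The members and lists were chosen with earlier results of these data known. Named are all 10 members, up to 4 called genes with the largest fold change of each other list, and the 5 genes most correlated with Jun and Fosl1. Cop1, Mrtfa and Mrtfb were matched as Rfwd2, Mkl1 and Mkl2. Python 3.11.15, numpy 2.4.6, pandas 2.3.3 and matplotlib 3.10.9 were used. Alternatives were pseudocounts of 0.5 and 8, other filters, upper-quartile scaling, the block, no trend, other thresholds, the compared states alone and each line left out; the lines with P5 alone, and each line left out with the block, were chosen after seeing the data. A further allele that all lines share and 1 marker gene are not reported here.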

Additional observations from a re-analysis of the deposited data

Results flagged for a closer look

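In 56 groups of 6 lines (levels in a state, or differences between 2 states), the gap of the highest or lowest line to the next was compared with the range, and 4 exceeded the critical value of 0.625, where chance gives about 1 in 20. Gaps and ranges were taken on log2 of normalized count plus 1. The levels printed below are normalized counts, on which the ratios would differ. The difference of Fosl1 between resistant and parental cells was 0.41 on the log2 scale in line #7, far above the other 5 lines (gap 0.683 of the range). Junb in the parental cells of line #9 was 1438 normalized counts, far below the others (0.704), and Batf there was 141.5, far above them (0.76). Atf3 in the resistant cells of line #3 was 179.6 normalized counts, far below the others (0.699).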

How the results depend on the processing

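For resistant versus parental cells the called subunits numbered 4 to 6 in every setting with all 6 lines; without the filter on low values Atf3 was lost (limma adjusted p = 0.0108). Leaving out a line gave 1 to 3 (1 without #4 or #7, 2 without #9 or #10, 3 without #3 or #6), and 4 to 6 with the replicate block; Fosl1 was called in each. For P12 versus resistant cells, leaving out a line gave 0 to 2 (0 without #4, #9 or #10) and 1 to 3 with the block, the 2 states alone gave 0, an adjusted p under 0.05 gave 5 and the replicate block 4. For P5 versus resistant cells the replicate block gave 1, an adjusted p under 0.05 gave 3, leaving out a line 0 to 1 (Fosl1 without #7), the same range with the block, and the lines with P5 alone 0. The other 3 comparisons gave 0 in every setting.

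Directions were followed over all alternatives except in P5 versus parental cells and P12 versus P5. They changed only for differences that were not called: Fosb in P12 versus parental cells (-0.37 to 0.010 leaving out lines, above 0 without #6), Fos there (-1.03 to 0.064, above 0 without #7) and Batf3 in P5 versus resistant cells (-0.74 to 0.30, above 0 without #7, where it was 0.29 with the block, and 0.038 in the lines with P5 alone, with or without the replicate block). In P12 versus P5 the block alone changed the direction of Atf3 (0.07 to -0.40) and Junb (0.12 to -0.07), neither of them called. The cause of these changes was not tested. Upper-quartile scaling moved the median of all genes in P5 versus resistant cells from 0.03 to 0.10.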
